A study of Mus musculus with 23 samples.

Results

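The comparison set the adult harderian gland (HG) against the embryonic epithelium from which its secretory tissue derives. It used 6 of the 23 arrays in the series: the 3 arrays of whole HG from mice aged 7 weeks and the 3 arrays of HG epithelium separated from its mesenchyme at embryonic day 16.5 (E16.5). All samples in the series were taken from mice on the background strain B6/CL, and total RNA was hybridised to Agilent arrays in 1 colour (Cy3). The 3 arrays of E16.5 HG mesenchyme served to mark transcripts that belong to stroma, and whole adult lacrimal gland (LG, 2 arrays) with E16.5 LG epithelium (3 arrays) served as the most similar pair of groups. The adult samples were whole glands, with stroma, vessels, nerves and immune cells, whereas the embryonic samples were separated tissue, so age and tissue composition cannot be told apart from this contrast alone. On the HG arrays the replicate number in the labels is also the slide. Whether the arrays of a group stand for different animals is not given in the labels, so the p-values speak only of the spread among particular arrays. That spread was estimated for each gene over all 23 arrays of the series, not over the 6 compared arrays alone.

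The HG is a tubuloalveolar gland behind the eye of many land vertebrates. In mice its cells release lipid onto the eye surface, largely wax esters and diacylglycerols with an ether-linked alkyl chain, and the gland also makes and stores porphyrin. Ether lipid synthesis starts in the peroxisome, and fatty acids are built in the cytosol from acetyl-CoA and elongated in the endoplasmic reticulum (ER). Porphyrin is made by the enzymes of heme synthesis that act before iron is inserted. The LG, its neighbour, instead secretes the watery and protein-rich part of the tear fluid. At E16.5 the HG epithelium is still a growing and branching bud.

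Signal on an array is given here as a level, log2 intensity minus the array's 75th percentile, so that 0 is the intensity of that percentile. A difference is the adult HG mean minus the HG epithelium mean of such levels, with its standard error (SE), and a gene is called where limma's adjusted p was under 0.05. Between 49.4 and 58.6 percent of spots on the adult HG arrays and between 54.2 and 59.5 percent on the HG epithelium arrays were well above background. The adult HG arrays correlated with each other less closely (r 0.959 to 0.975 across genes) than the HG epithelium arrays (0.987 to 0.989). Adult HG replicate 1 stood apart in markers of other tissues. Its summed intensity of skeletal muscle markers, in units of the array's 75th percentile, was 208, against 19.4 and 4.02 on adult HG replicates 2 and 3 and 1.91 to 6.96 on HG epithelium arrays. Its immune sum was 470, against 228 and 148 on replicates 2 and 3. The Y-linked genes Ddx3y and Eif2s3y were well above background on all HG epithelium arrays and on no adult HG array (at least 22.6 and 35.6-fold lower), while Xist, the RNA that silences an X chromosome in females, did not pass the test (-0.39). The labels give no sex, and the part of sex in the results was not tested. Summed mesenchymal markers were 511 to 932 on adult HG arrays, 584 to 790 on HG epithelium arrays and 2820 to 3740 on HG mesenchyme arrays. The part of carried-over stroma in the sums of the separated epithelium was not tested.

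**Figure D1:**
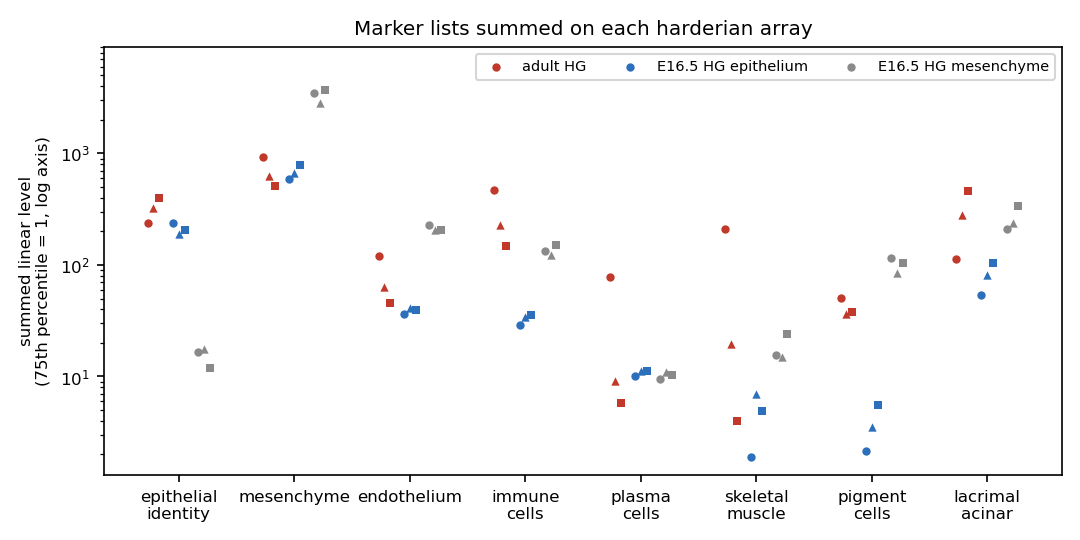
Summed linear intensity (log axis, in units of the array's 75th percentile) of 8 marker lists on each adult HG, E16.5 HG epithelium and E16.5 HG mesenchyme array. Epithelial markers summed to 240 to 401 on adult HG arrays and 189 to 240 on HG epithelium arrays, and skeletal muscle, immune and plasma cell markers were highest on adult HG replicate 1.

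Most measured genes differed between adult gland and embryonic epithelium, and about as many were higher as lower. Of 16324 genes tested, 5622 were higher in adult HG (34.4 percent) and 5807 lower (35.6 percent). At least 2-fold differences were found for 4145 genes in the higher direction (25.4 percent) and 4152 in the lower (25.4 percent). The median over all genes was 0.06. Shares of 34.4 percent higher and 35.6 percent lower, 16.5 percent above both embryonic compartments and 15.7 percent below both are the background against which every list count below is read. In bulk samples, fewer cells of a kind and less RNA per cell cannot be told apart. Because the adult gland contains stroma, each gene was also compared with the HG mesenchyme: 2694 genes were at least 2-fold higher in adult HG than in both embryonic compartments (16.5 percent) and 2568 were at least 2-fold lower than in both (15.7 percent). Of the 2-fold higher genes 34.3 percent were at least 2-fold richer in mesenchyme than in epithelium at E16.5, against 20.2 percent of all genes tested. Of these 1421 higher genes only 399 were also above the mesenchyme. Adult gland and mesenchyme were compared with the same HG epithelium arrays, which can by itself raise the 34.3 percent.

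The 10 genes with the largest differences upward included several enzymes of lipid metabolism, and they were also the 10 highest among those above both embryonic compartments. Elovl3, the elongase of saturated very long chain fatty acids, had levels of 7.40, 7.04 and 8.23 on the adult HG arrays, against -6.69, -6.63 and -6.59 on the HG epithelium arrays. No probe of Elovl3 was well above background on any epithelium array, so its adult level was at least 4995-fold higher (adjusted p = 1.13e-12). For such a bound the bright group's mean is divided by a floor for the dim group, the mean over its arrays of the dimmest signal still well above background, or of the probe's own signal where that was higher. Cartpt, which encodes a secreted neuropeptide precursor, had levels of 9.50, 9.47 and 9.66 in adult HG and -5.79, -3.71 and -4.54 in HG epithelium, a difference of 14.23 ± 0.51 (adjusted p = 3.83e-14). Bpifa6, of a family of secreted lipid-binding proteins, had levels of 10.36, 9.65 and 10.55 in adult HG and -6.77, -1.60 and -3.76 in HG epithelium (14.23 ± 1.73, adjusted p = 7.13e-07). The adult values lay close together and far above the embryonic ones in these 3 genes, although the Bpifa6 values spread widely in the epithelium.

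Most of the others in the same set were not well above background on any epithelium array. Sptlc3, a subunit of the enzyme that starts sphingolipid synthesis, was at least 6224-fold higher in adult HG, with another probe giving a difference of 8.49, and Acsbg1, an acyl-CoA synthetase, at least 5748-fold. The acyltransferase gene Dgat2l6 was at least 3699-fold higher and Pck1, the enzyme that feeds glyceride-glycerol and glucose synthesis, at least 2712-fold. The cytochrome P450 genes Cyp4a32 and Cyp2b10 were at least 2584 and 2481-fold higher. The esterase-like gene Aadacl4fm1 differed by 13.32 ± 0.55 (adjusted p = 2.04e-13). Cyp2b10 also differed by 13.36 in the LG, and the test of HG against LG was not passed (adjusted p = 0.938).

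**Figure D2:**
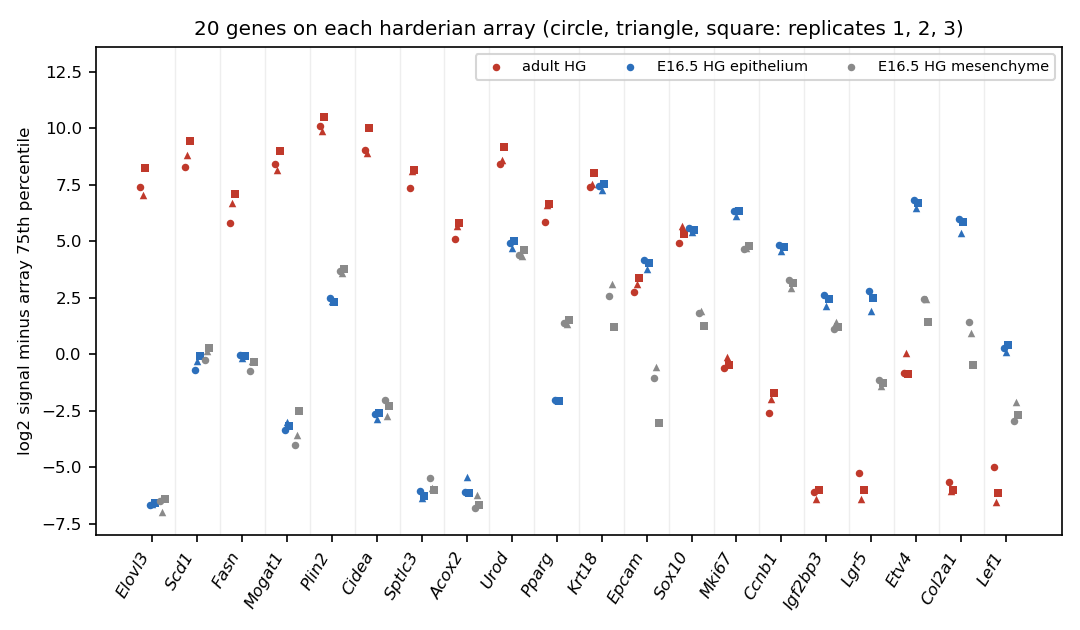
Level (log2 intensity minus the array's 75th percentile) of 20 genes on the adult HG, E16.5 HG epithelium and E16.5 HG mesenchyme arrays; circles, triangles and squares are replicates 1, 2 and 3. Lipid genes such as Scd1 (adult 8.28, 8.83 and 9.42) lie far above both embryonic compartments, Krt18 and Sox10 overlap between adult gland and epithelium, and Mki67 and Ccnb1 lie below both compartments.

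Fatty acid synthesis had the highest median of the lipid lists. Of 40 measured genes 29 were higher and 6 lower, against 34.4 and 35.6 percent of all genes, and 27 were above both embryonic compartments. The median difference was 3.94. All 8 genes of acetyl-CoA, malonyl-CoA and NADPH supply were higher. Acly, which splits citrate to acetyl-CoA, had levels of 8.98, 9.07 and 9.74 in adult HG and 5.34, 5.11 and 5.47 in HG epithelium (3.96 ± 0.17, adjusted p = 5.59e-13). Acaca, the carboxylase that makes malonyl-CoA, had 7.90, 8.40 and 9.18 in adult HG and 4.62, 4.41 and 4.65 in HG epithelium (3.93 ± 0.21), and malic enzyme Me1 differed by 8.73. Fasn, the synthase that builds palmitate, had 5.79, 6.69 and 7.08 in adult HG and -0.03, -0.18 and -0.08 in HG epithelium (6.62 ± 0.23, adjusted p = 1.89e-14). None of these groups overlapped, and the epithelium held clearly measured levels of all 4 genes.

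Desaturases and elongases differed among themselves. Scd1, which puts a double bond into saturated chains, had levels of 8.28, 8.83 and 9.42 in adult HG and -0.70, -0.28 and -0.08 in HG epithelium (9.19 ± 0.24, adjusted p = 7.38e-16), and Scd3 differed by 7.58, with 2 other probes at 10.85 and 11.68. The paralog Scd2 was already at 6.26, 5.98 and 6.39 in HG epithelium and changed less (1.36). Fads1 and Fads2, the desaturases of polyunsaturated fatty acids, were lower (-2.36 and -2.13). Among elongases Elovl5 (7.6), Elovl6 (5.05) and Elovl1 (4.28) were higher with Elovl3, whereas Elovl7 (-4.78) and Elovl4 (-1.63) were lower and Elovl2, not well above background on any adult array, was at least 3.38-fold lower. The other enzymes of the elongation cycle, Hsd17b12 (4.89), Hacd2 (3.95) and Tecr (2.43), were higher. The Scd genes are closely similar in sequence, so signal of one can reach the probe of another.

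The promoter of Fasn is shown because it holds closely spaced copies of CCAAT, the box bound by the factor NF-Y, as does that of Acsbg1. Of 42 promoters matched to 35 fatty acid synthesis genes 19 held CCAAT on either strand (45.2 percent), and 9 held at least 2 (21.4 percent). Among the 16225 promoters of tested genes these shares were 34.8 and 11.8 percent, and among all 32851 promoters 33.8 and 10.1 percent. For cholesterol synthesis 15 of 18 promoters held CCAAT (83.3 percent) and 9 held at least 2 (50 percent), for peroxisomal genes 11 of 27 (40.7 percent) held it, for porphyrin synthesis 4 of 10 (40.0 percent), and for acylglycerol and ether lipid genes 13 of 42 (31.0 percent). Each window searched was 250 bases before the RefSeq transcript start, on GRCm38.p6, and the 150 bases nearest the start are printed, both genes lying on the minus strand, with CCAAT, read on either strand, in capitals. In Fasn a copy on one strand overlaps a copy on the other, and the first and next copies start 28 bases apart, against 30 in Acsbg1. A match of letters is a description of the sequence only.
Fasn, chr11:120824548-120824697: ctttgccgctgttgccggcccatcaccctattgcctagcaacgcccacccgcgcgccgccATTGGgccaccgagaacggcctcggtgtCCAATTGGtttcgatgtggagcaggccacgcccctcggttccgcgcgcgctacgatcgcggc
Acsbg1, chr9:54661886-54662035: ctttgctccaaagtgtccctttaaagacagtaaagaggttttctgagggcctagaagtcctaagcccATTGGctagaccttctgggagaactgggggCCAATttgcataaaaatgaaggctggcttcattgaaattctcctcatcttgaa

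Genes that assemble and store neutral lipid were higher too. Of 37 measured acylglycerol and ether lipid genes 29 were higher and 3 lower, against 34.4 and 35.6 percent of all genes, with a median of 2.65. Of the 37, 26 were above both embryonic compartments, against 16.5 percent. Mogat1, which joins a fatty acid to monoacylglycerol, had levels of 8.44, 8.13 and 8.98 in adult HG and -3.36, -3.00 and -3.18 in HG epithelium (11.70 ± 0.45, adjusted p = 8.9e-14). Its relative Mogat2 was lower (-4.59), and Dgat1 (4.40) and Dgat2 (2.05), which complete triacylglycerol, were higher. Agps, which forms the ether bond in the peroxisome, had levels of 8.16, 8.04 and 8.63 in adult HG and 4.02, 3.46 and 3.83 in HG epithelium (4.51 ± 0.18), and its partner Gnpat differed by 2.43. The fatty alcohol and wax genes Far2 (at least 11.4-fold) and Awat2 (2.92) were higher. Among lipid droplet proteins Plin2 had 10.10, 9.89 and 10.49 in adult HG and 2.51, 2.35 and 2.29 in HG epithelium (7.78 ± 0.25), and Cidea, which promotes droplet fusion, differed by 12.04 ± 0.39. Plin5 was not called (0.29). Mgll, the monoacylglycerol lipase, differed by 9.92, with other probes between 5.14 and 10.02, and Lipe, the hormone-sensitive lipase of fat cells, by 0.18 (not called).

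**Figure D3:**
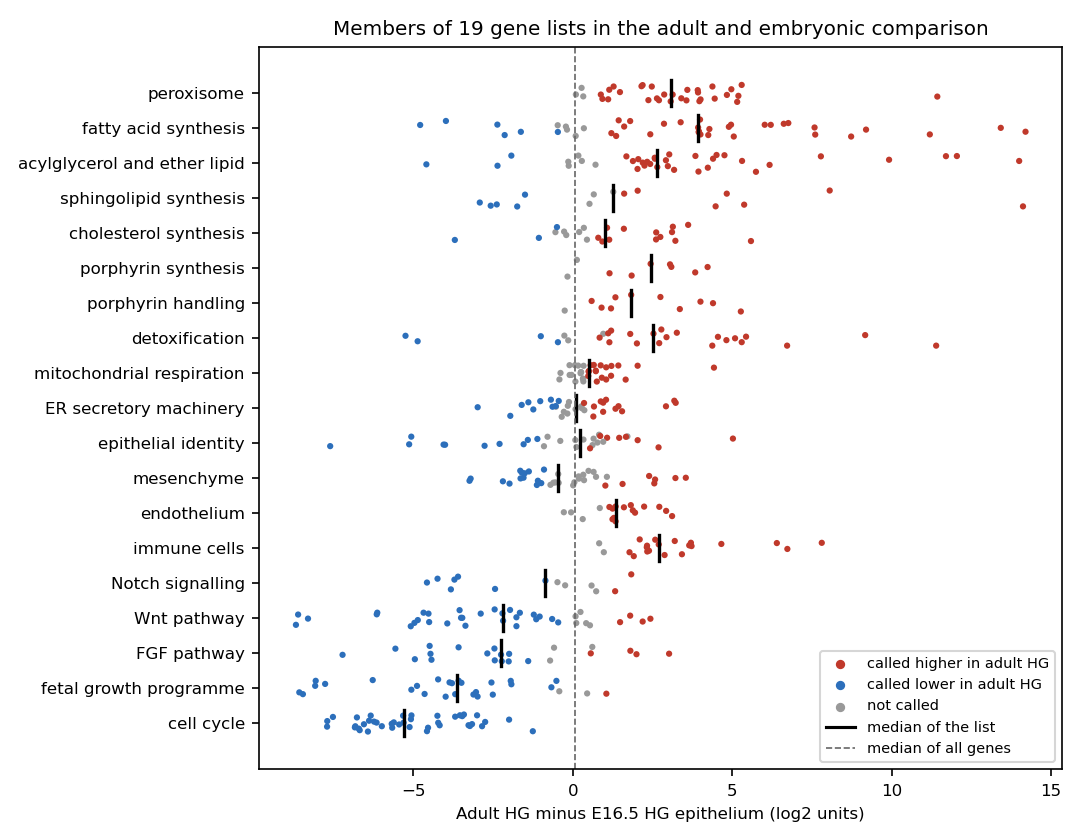
Difference (log2, adult HG minus E16.5 HG epithelium) of each measured member of 19 gene lists; red points were called higher, blue lower and grey neither, black bars are medians and the dashed line is the median of all genes (0.06). The medians of fatty acid synthesis (3.94) and peroxisome (3.07) lie far to the right and those of cell cycle (-5.30) and fetal growth (-3.63) far to the left.

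Fat cell markers moved as well. Of 10 measured adipocyte markers 8 were higher and 1 lower (median 3.47), and 5 of the 10 also stand in the lipid lists. The defining fat genes varied among adult arrays: Adipoq had levels of 1.63, -0.77 and -2.03 in adult HG and Cfd 4.02, 2.32 and 1.69, with both highest on replicate 1 and neither above background in HG epithelium (-6.78, -5.83 and -6.64 for Adipoq and -6.43, -6.07 and -6.10 for Cfd). By contrast Scd1, Fasn and Mogat1 were highest on adult replicate 3. In the LG Adipoq differed by 6.92 and Cfd by 9.13, where Fasn differed by -0.82 and Mogat1 by -0.67 (not called). The part of fat cells in the other lipid values was not tested.

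Sphingolipid, sterol and uptake genes were more divided. Of 15 ceramide and sphingolipid genes 7 were higher and 5 lower, not far from the background (median 1.27, and 0.74 without adult replicate 2). The higher ones included, beside Sptlc3, Cers4, a ceramide synthase for long acyl chains, with 9.94, 9.43 and 9.96 in adult HG and 1.85, 1.72 and 1.6 in HG epithelium (8.05 ± 0.19). Sptlc2 (-1.74), the usual partner of Sptlc1, and Cers6 were lower (for Cers6 at least 2.33-fold), while Sptlc1 was higher (5.37). Of 22 cholesterol genes 13 were higher and 3 lower (median 1.0), and 5 were lower without adult replicate 3. Squalene epoxidase Sqle had 7.73, 7.96 and 8.52 in adult HG and 5.07, 4.61 and 4.89 in HG epithelium (3.22 ± 0.19), and the feedback gene Insig1 differed by 5.59. Of 17 uptake and binding genes 10 were higher and 6 lower (median 2.07), with Slc27a2 (7.96) and Lpl (5.54) among the higher and Fabp7 (-7.64) the lowest of all 17. The median of this list was 1.35 without adult replicate 1, and 1.27 and 1.17 within slides 2 and 3.

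Of 17 transcription regulators of lipid metabolism 10 were higher and 2 lower (median 0.99). Pparg, the nuclear receptor that drives fat storage, had levels of 5.84, 6.59 and 6.65 in adult HG and -2.04, -2.03 and -2.07 in HG epithelium (8.41 ± 0.22, adjusted p = 6.84e-16). Ppara (6.03, other probes between 3.06 and 6.79), Nr1h3 (5.85), which encodes LXR alpha, and Srebf1 (3.22), the inducer of fatty acid enzymes, were higher too. Srebf2, which acts mainly on cholesterol enzymes, was lower by this probe (-0.67), with another at 0.31, and Mlxipl, the carbohydrate response factor, was not called (-0.27). Pparg, Ppara and Srebf1 were all above the HG mesenchyme as well, by 4.94, 5.05 and 3.82.

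Peroxisomal genes were higher nearly throughout. Of 33 measured genes 30 were higher and none lower, against 34.4 and 35.6 percent of all genes, and 26 were above both embryonic compartments, with a median of 3.07. All 16 matrix enzymes were higher. Acox2, which oxidises branched chains and bile acid precursors, was at least 1221-fold higher. Catalase (Cat) had 5.36, 5.51 and 6.07 in adult HG and 1.20, 1.14 and 1.26 in HG epithelium (4.45 ± 0.17), and the sterol carrier Scp2 differed by 3.92. Of 17 membrane and assembly genes 14 were higher, among them the membrane proliferation factor Pex11a (5.30) and Pex3 (4.38). Pex10 (0.28) and Pex6 (0.10) were not called.

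Mitochondrial respiration changed less. Of 33 subunit genes 18 were higher and none lower, with a median of 0.50, but only 8 were higher with scaling on the median of each array, and 2 were lower without adult replicate 3 and 1 without epithelium replicate 2. Cox7a1, the heart and muscle form of a cytochrome oxidase subunit, had the largest difference of the list, with levels of 5.06, 4.35 and 4.34 in adult HG and 0.29, 0.11 and 0.08 in HG epithelium (4.43 ± 0.22).

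Porphyrin synthesis genes were mostly higher. Of 9 measured genes 7 were higher and none lower, against 34.4 and 35.6 percent of all genes, with a median of 2.44. Alas1, the rate-limiting synthase of nonerythroid cells, had levels of 8.0, 8.18 and 8.04 in adult HG and 3.93, 3.69 and 3.91 in HG epithelium (4.23 ± 0.13, adjusted p = 4.38e-15). Urod had 8.41, 8.61 and 9.15 in adult HG and 4.93, 4.68 and 5.03 in HG epithelium (3.84 ± 0.21). Alad (3.05), Uros (2.44), Cpox (1.85) and Ppox (1.15) were also higher. Fech, which inserts iron into protoporphyrin, had 3.31, 3.67 and 3.91 in adult HG and 3.63, 3.32 and 3.56 in HG epithelium, and the groups overlapped (0.13 ± 0.20, adjusted p = 0.569). The erythroid synthase Alas2 was not called either (-0.16).

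Of 11 genes of porphyrin transport and heme breakdown 10 were higher and none lower (median 1.83). Tspo, a porphyrin-binding protein of the outer mitochondrial membrane, had 6.35, 6.39 and 6.46 in adult HG and 1.21, 1.08 and 1.1 in HG epithelium (5.27 ± 0.19), and Abcg2, an exporter that carries porphyrins, 6.54, 6.57 and 6.73 in adult HG and 2.60, 2.46 and 2.76 in HG epithelium (4.0 ± 0.17). Hmox1, the inducible heme oxygenase, differed by 4.40 from epithelium but by 0.80 from HG mesenchyme. Abcg2 and Alas1 were above the mesenchyme by 2.53 and 4.21.

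Among receptors through which hormones and nerves act on exocrine glands, 12 of 23 were higher and 6 lower (median 0.79). The prolactin receptor gene Prlr had levels of 4.18, 4.98 and 5.16 in adult HG and -2.61, -2.91 and -3.43 in HG epithelium (7.76 ± 0.26, another probe 5.97). Chrm3, the muscarinic receptor of secretory cells, was at least 60-fold higher, whereas Chrm1 was lower (-4.99, another probe -0.46). The 2 receptors for vasoactive intestinal peptide moved in opposite directions, Vipr1 by 4.06 (another probe 1.01) and Vipr2 by -4.34 (other probes -2.57 and -0.96). In the LG Prlr differed by 6.89, and the test of HG against LG was not passed (adjusted p = 0.0785). Of 3 measured melatonin synthesis genes none was higher (1 without adult replicate 3) and Ddc was at least 9.46-fold lower, although another probe of it gave 0.73.

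Of 27 detoxification genes, which handle foreign compounds, aldehydes and lipid peroxides, 20 were higher and 4 lower, against 34.4 and 35.6 percent of all genes (median 2.53). Gsta2 (11.39), the carboxylesterase Ces1d (9.17) and the aldehyde dehydrogenase Aldh3a1 (5.43, another probe 2.67) were among the highest. Gpx4, which reduces lipid hydroperoxides, had levels of 8.68, 8.58 and 8.84 in adult HG and 6.24, 6.14 and 6.12 in HG epithelium (2.53 ± 0.14), while Gpx2 (-5.24) and Aldh1a3 (-4.86) were lower. Glutathione transferase genes of one class share much of their sequence, so their probes may not separate them.

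Proliferation genes were lower throughout. All 41 measured cell cycle genes were lower in adult HG, against 35.6 percent of all genes, with a median of -5.30, and 38 were below both embryonic compartments. Mki67, a marker of cycling cells, had levels of -0.63, -0.13 and -0.49 in adult HG and 6.35, 6.11 and 6.33 in HG epithelium (-6.68 ± 0.15, adjusted p = 2.88e-16). Ccnb1, the cyclin of entry into mitosis, had -2.59, -2.0 and -1.71 in adult HG and 4.84, 4.57 and 4.73 in HG epithelium (-6.82 ± 0.32), and the kinase gene Cdk1 differed by -6.55, with other probes between -2.77 and -2.07. Bub1 and Kif11, of the spindle checkpoint and spindle, were not well above background on any adult array and were at least 74.2 and 47.7-fold lower. Genes of mitosis had a median of -6.33 over 23 members and genes of DNA replication one of -3.61 over 18, where Pcna (-1.25) and Tyms (-2.0) changed least. In the LG the same list had a median of -5.40, and Mki67 differed by -6.02 and Ccnb1 by -8.40.

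Promoters of 3 of these genes are shown because each holds a pair of CCAAT boxes close to the start. Of 35 promoters matched to 34 cell cycle genes 27 held CCAAT (77.1 percent) and 17 at least 2 (48.6 percent), against 34.8 and 11.8 percent of promoters of tested genes. TTTGAA, the core of the cell cycle homology region bound by the DREAM complex, was in 8 of the 35 (22.9 percent), against 11.6 percent of promoters of tested genes. Coordinates are GRCm38.p6, all 3 genes lie on the minus strand, and capitals mark CCAAT and TTTGAA on either strand. The first and next CCAAT start 32 bases apart in Ccnb1 and Cdk1 and 45 in Cdc20.
Ccnb1, chr13:100786487-100786636: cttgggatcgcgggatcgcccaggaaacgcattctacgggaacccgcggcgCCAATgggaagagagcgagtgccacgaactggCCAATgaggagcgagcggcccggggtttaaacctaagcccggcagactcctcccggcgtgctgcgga
Cdk1, chr10:69352913-69353062: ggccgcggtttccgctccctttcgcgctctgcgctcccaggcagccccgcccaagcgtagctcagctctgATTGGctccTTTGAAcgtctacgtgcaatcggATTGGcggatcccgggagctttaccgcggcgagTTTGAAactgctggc
Cdc20, chr4:118437344-118437493: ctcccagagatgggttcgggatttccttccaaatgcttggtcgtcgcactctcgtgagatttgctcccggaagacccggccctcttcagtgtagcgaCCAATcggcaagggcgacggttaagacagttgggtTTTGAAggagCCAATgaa

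Inhibitors of the cycle had counts close to those of all genes. Of 15 genes 6 were higher and 5 lower, with a median of 0.09 that was between -0.01 and 0.31 when single arrays were left out. Cdkn1a, which encodes p21, had levels of 2.01, 2.18 and 2.72 in adult HG and -0.52, -0.57 and -0.69 in HG epithelium (2.90 ± 0.25), and Btg2 (3.11), Ccng2 (2.89) and the retinoblastoma gene Rb1 (1.73) were higher. Cdkn1c, the imprinted inhibitor p57, was lower, with 2.62, 2.0 and 1.92 in adult HG and 5.61, 6.11 and 6.19 in HG epithelium (-3.78 ± 0.21), and Cdkn1b was not called (-0.04). Another probe of Cdkn1a gave 0.87. In the LG Cdkn1a was lower (-1.91), and the difference between the glands passed the test (adjusted p = 7.38e-09).

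Genes of fetal growth were lower in 25 of 28 cases and higher in 1, against 35.6 and 34.4 percent of all genes (median -3.63). Igf2bp3, an RNA-binding protein of fetal tissue, had -6.10, -6.40 and -6.02 in adult HG, where it was not above background, and 2.64, 2.13 and 2.43 in HG epithelium, at least 91.2-fold lower. Igf2bp1 was at least 65.2-fold lower, the chromatin protein Hmga2 at least 127-fold, and the progenitor factor Sox11 at least 85.9-fold. Of 14 imprinted genes 13 were lower and none higher, among them Mest (-6.27), Grb10 (-4.88) and the long noncoding RNA Meg3 (-3.98). Igf2 itself had -3.78, -3.42 and -4.42 in adult HG and -1.48, -0.37 and -0.82 in HG epithelium (-2.98 ± 0.27), low on this scale in both. Lin28a was the gene that was higher (1.05), a call that was lost without adult replicate 2 or epithelium replicate 3, and 2 genes were higher without adult replicate 3.

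The largest differences downward, among all genes and among those below both embryonic compartments, shared members with these lists. Bex1, a small signalling adaptor on the X chromosome, had -6.23, -6.61 and -6.23 in adult HG and 6.24, 5.76 and 6.26 in HG epithelium (-12.44 ± 0.28, adjusted p = 2.26e-16), with another probe at -8.95, and Bex4 was at least 575-fold lower. The cartilage collagen gene Col2a1 had -5.67, -6.04 and -6.00 in adult HG and 5.98, 5.35 and 5.83 in HG epithelium, at least 914-fold lower, and its difference from HG mesenchyme was -6.53. Col9a1 differed by -9.69, although another probe gave 1.29. Ticrr, needed to start DNA replication, was at least 98.8-fold lower and the Wnt receptor gene Fzd9 differed by -8.40. Sp5, Tnfrsf19, Igf2bp3 and Sox11 made up the rest of the 10. Of 11 cartilage and bone genes 6 were lower and 2 higher (median -1.27), with 1 higher without adult replicate 1 or epithelium replicate 3, and Acan, of the cartilage matrix, was not called (0.40).

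Signalling of the growing bud was mostly lower. Of 38 Wnt genes 29 were lower and 4 higher, against 35.6 and 34.4 percent of all genes (median -2.19). Only 15 of the 38 were below both embryonic compartments, against 15.7 percent of all genes, and the median against HG mesenchyme was -0.65. Of 20 feedback and target genes 18 were lower and 1 higher, and of 18 ligands and receptors 11 were lower and 3 higher. Lgr5, a receptor for R-spondin and a target of the pathway, had levels of -5.25, -6.43 and -6.03 in adult HG and 2.79, 1.91 and 2.50 in HG epithelium, at least 91.2-fold lower (adjusted p = 3.11e-14). The target factor Sp5 was at least 139-fold lower, Lef1 at least 20.7-fold and Axin2 at least 5.21-fold, with another probe at -2.44. Tnfrsf19 had -3.86, -3.33 and -5.14 in adult HG and 4.50, 4.28 and 4.71 in HG epithelium (-8.61 ± 0.43), with another probe at -2.65. The ligand genes Rspo3 (2.43) and Wnt5a (2.19) were higher than in epithelium, and against HG mesenchyme their differences were -2.64 (lower) and -0.39 (not called). Without epithelium replicate 1 the call of Rspo3 against epithelium was lost (1.76, adjusted p = 0.0561).

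The targets Lef1 and Dkk4 were dim in the LG at both ages. Lef1 had levels of -4.06 and -4.98 in adult LG and -5.14, -5.85 and -5.24 in LG epithelium, above background on 1 of those 5 arrays. Dkk4, a Wnt inhibitor and target, had -5.61 and -5.10 in adult LG and -5.96, -5.74 and -5.27 in LG epithelium, against -5.11, -5.21 and -4.85 in adult HG and 1.26, 0.81 and 1.15 in HG epithelium. Sp5 had -4.04 and -4.64 in adult LG and -2.66, -2.37 and -2.50 in LG epithelium, a difference of -1.83, where the HG difference was -8.68. The difference of differences passed the test for Lef1 (-7.03), Sp5 (-6.85), Tnfrsf19 (-7.04), Dkk4 (-6.42) and Lgr5 (-4.63), and for 16 Wnt genes in all in the lower and 5 in the higher direction, against 18.1 and 27.1 percent of all genes. The count of lower Wnt genes was 23 with normexp background correction. It was 4 with the strict filter on dim probes, which kept only 19 of the 38 genes. That filter drops genes not well above background in adult HG, Lef1, Sp5 and Lgr5 among them.

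Of 22 fibroblast growth factor (FGF) genes 15 were lower and 4 higher, against 35.6 and 34.4 percent of all genes (median -2.24). Etv4, a nuclear target of the pathway, had -0.85, 0.07 and -0.89 in adult HG and 6.83, 6.46 and 6.68 in HG epithelium (-7.22 ± 0.28, adjusted p = 8.9e-14), and Etv5 (-5.56), the phosphatase gene Dusp6 (-4.43) and Spry2 (-4.49) were lower. Dusp4 was higher (3.02). Among the receptors Fgfr2, which receives the branching signal, differed by -2.01 (another probe -3.96) and Fgfr1 by -2.44 (other probes -2.71 and -0.35). The mesenchymal ligand gene Fgf10 had 1.20, -1.03 and -1.66 in adult HG and -4.18, -2.08 and -1.23 in HG epithelium, groups that overlapped. It was called higher (2.0 ± 0.70, adjusted p = 0.0172), but not without adult replicate 1 (1.15, adjusted p = 0.135) or epithelium replicate 1 (1.16, adjusted p = 0.136), and it was lower than in HG mesenchyme (-4.73).

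In the other pathways the lower genes also outnumbered the higher. Of 20 genes of bone morphogenetic protein (BMP) and TGF-beta signalling 12 were lower and 2 higher, against 35.6 and 34.4 percent of all genes (median -1.65). The ligand Bmp7 had -1.14, -0.71 and -0.69 in adult HG and 5.46, 4.98 and 5.35 in HG epithelium (-6.11 ± 0.18), and the target genes Id1, Id3 and Id4 were lower (-1.99, -3.06 and -3.65). Of 13 Notch genes 7 were lower and 2 higher (median -0.86, and 1 higher without adult replicate 2 or 3 or epithelium replicate 1), with Hey1 at -3.82, Jag2 at -4.24 and Hes5 at least 7.76-fold lower. Of 10 hedgehog genes 5 were lower and none higher (median -0.91, and 1 higher without epithelium replicate 3), and Shh was not well above background in either group.

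Of 30 epithelial genes 8 were higher, 10 lower and 12 not called (median 0.23), near or under the 34.4 and 35.6 percent of all genes. None was below both compartments. At E16.5, however, 29 of the 30 were at least 2-fold higher in epithelium than in mesenchyme. The choice of markers thus left little room to fall below the mesenchyme, and nothing is drawn from that count. Krt18, a keratin of simple epithelia, had 7.40, 7.54 and 8.03 in adult HG and 7.45, 7.25 and 7.53 in HG epithelium (0.25 ± 0.45, adjusted p = 0.632). Krt8 (-0.43), Epcam (-0.90) and Cdh1 (-0.79), which encode a keratin and a pair of adhesion proteins of epithelia, were not called. Epcam and Cdh1 were called lower with normexp background correction and in the fit of these 6 arrays alone. The count of higher genes was 14 with normexp, 5 with median scaling and 5 without adult replicate 3. The list median was 0.43 without adult replicate 1, -0.002 without adult replicate 3 and 0.08 without epithelium replicate 2. Within the claudins, which seal tight junctions, Cldn10 was higher (5.02), Cldn3 and Cldn7 were not called (0.34 and 0.08), Cldn4 was lower (-5.06), and Cldn6 was at least 54.4-fold lower. The desmosome gene Dsp was lower too (-4.00). In HG mesenchyme the summed epithelial markers were 11.8 to 17.8, against 240 to 401 in adult HG.

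Regulators of gland development were lower or not called in most cases. Of 35 factors 16 were not called, 16 were lower and 3 higher, against 35.6 and 34.4 percent of all genes (median -0.76). The median was -0.45 without adult replicate 2, -0.49 without epithelium replicate 2, where 1 gene was higher, and -0.32 without epithelium replicate 3. Sox10 had 4.94, 5.66 and 5.32 in adult HG and 5.58, 5.43 and 5.49 in HG epithelium (-0.19 ± 0.29, adjusted p = 0.567), and Pax6 (0.47), Tfap2c (0.04) and Barx2 (0.18) were not called. In the LG Sox10 was lower (-3.79), and the difference between glands passed the test (3.59, adjusted p = 2.19e-06). Elf5, a factor of secretory epithelia, had 6.82, 7.16 and 7.22 in adult HG and 3.77, 3.49 and 3.53 in HG epithelium (3.47 ± 0.48). Lower factors included Gata3 (-4.59), Foxc2 (-4.29), Meis2 (-4.16), Meis1 (-3.63) and Six4 (-4.01). Foxa1 was not called in the HG (-0.18) but differed by 11.12 in the LG, where it was not above background on any LG epithelium array.

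Of 11 basal and myoepithelial genes 5 were higher and 3 lower, close to the shares of all genes. The median of 0.07 was between -0.06 and 0.19 when single arrays were left out, and 1 gene was lower without adult replicate 3 or epithelium replicate 2 or 3. Cnn1, a calponin of contractile cells, had 5.06, 5.29 and 5.85 in adult HG and -3.02, -2.07 and -2.34 in HG epithelium (7.87 ± 0.32), and Myh11 (7.15), Acta2 (4.50) and Tagln (3.98) were higher. All 4 are also smooth muscle genes, and each was above HG mesenchyme (4.04, 2.73, 1.51 and 1.96). The basal keratins Krt14 (-1.15) and Krt17 (-1.18) were lower, calls that were lost when single arrays were left out (adjusted p up to 0.0832 for Krt14 and 0.134 for Krt17). Krt5 (-0.62) and Trp63 (0.07) were not called, although another probe of Trp63, the basal cell factor p63, gave -3.51. Of 19 keratins 2 were higher and 5 lower (median -0.43), without adult replicate 3 the counts were 5 and 3 (median -0.05), and 3 were lower without epithelium replicate 2 or 3. Adult replicate 3 was low in keratins of stratified and ductal epithelium: Krt15 had 5.0, 5.38 and 1.53 in adult HG, Krt6b 4.71, 3.75 and -4.26 and Krt19 1.88, 2.89 and -1.39. The conjunctival mucin genes Muc4 (2.95, 3.66 and -2.87 in adult HG) and Muc5ac (2.46, 0.36 and -3.15) were also lowest on replicate 3, and Muc4 was called higher without it (3.08, adjusted p = 0.000758). Of 17 skin and conjunctiva genes 4 were higher and none lower (median 0.60), with 2 lower without adult replicate 1.

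Cell types that come with a whole gland were measured by their markers, and most did not exceed the embryonic mesenchyme. Of 18 endothelial genes 14 were higher than in epithelium and none lower (median 1.34), but none was above both compartments, and without adult replicate 1 the counts were 13 and 1 (median 1.1). Of 9 pigment cell genes 8 were higher and 1 lower (median 2.40, and none lower without adult replicate 2 or epithelium replicate 3), none above both, and Dct had 5.05, 4.66 and 4.90 in adult HG, -0.84, 0.36 and 1.41 in HG epithelium and 6.17, 5.57 and 5.99 in HG mesenchyme. Of 36 mesenchymal genes 7 were higher and 14 lower (median -0.45), with medians of 0.92, -0.59 and -1.21 within slides 1, 2 and 3 and 5 and 15 genes without adult replicate 1. Without adult replicate 3, epithelium replicate 1 and epithelium replicate 3 the median was -0.20, -0.82 and -0.21. Thy1 (3.54) and Dcn (2.56) were among the higher and Osr2 (-3.24) and Col14a1 (-3.20) among the lower.

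Of 21 immune genes 19 were higher and none lower (median 2.70), and 6 were above both compartments. Those 6 included the antigen presentation genes H2-Ab1, with 6.51, 5.19 and 4.06 in adult HG and -1.79, -1.60 and -1.03 in HG epithelium (6.73 ± 0.39), H2-Eb1 (6.40) and Cd74 (4.66). The list median was 4.36 within slide 1, 2.75 within slide 2 and 1.46 within slide 3, and 2.06 without adult replicate 1, with the same counts. Of 6 plasma cell genes 4 were higher and 1 lower (median 2.72, and 1.80 without replicate 1). The immunoglobulin joining chain gene Jchain had 6.02, 0.74 and -3.45 in adult HG and was not above background in HG epithelium.

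Skeletal muscle genes differed widely among the adult arrays. Of 23 genes 14 were higher and 1 lower (median 2.50), but the median was 5.01 within slide 1, 1.19 within slide 2 and -0.15 within slide 3. Without adult replicate 1 the counts were 8 higher and 2 lower (median 1.28), 9 were higher without epithelium replicate 1, and none was lower without adult replicate 2 or epithelium replicate 2 or 3. Myh4, a fast myosin, had 2.39, -1.24 and -4.92 in adult HG and -6.97, -5.58 and -6.83 in HG epithelium. Lists of nerve-associated cells were mixed. Of 9 Schwann cell genes 5 were higher and 2 lower (median 0.60), with S100b at 3.90, and of 11 neuronal genes 1 was higher and 6 lower (median -1.43, and -0.90 without adult replicate 2 and -0.69 without epithelium replicate 3), with Snap25 higher (1.96) and the neurofilament gene Nefl at least 3.9-fold lower. Of 10 erythroid genes 4 were lower and none higher (median -1.10), close to the 35.6 percent of all genes, among them the embryonic globin gene Hbb-y (-5.17). Without adult replicate 1 the lower count was 7 (median -1.77), and without adult replicate 3 it was 2 (median -0.45). Of 5 lens and retina genes 1 was higher and 1 lower, and the lower one was Rlbp1, at least 77.4-fold. The median of these 5 was -0.18 and lay between -1.0 and 0.39 with single arrays left out, none was higher without any 1 of the arrays except adult replicate 2, and 2 were lower without that array.

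Secreted proteins typical of LG acini were found at lower and uneven levels. Of 17 genes 11 were higher than in HG epithelium and 3 lower (median 3.42), against a median of 8.41 in the LG, and the difference of differences was lower for 10 and higher for 1, against 18.1 and 27.1 percent of all genes. The 3 lower calls in the HG became 0 without adult replicate 1 or 2 and 1 without epithelium replicate 1 or 2. Scgb2b2, a secretoglobin, had 2.57, 6.67 and 7.54 in adult HG and -3.93, 1.88 and -2.84 in HG epithelium. Mucl2 had -1.78, 4.04 and 5.14 in adult HG and -7.09, -0.92 and -6.95 in HG epithelium, and Pip, the prolactin-inducible protein, -0.72, 3.3 and 4.01 in adult HG and -6.59, -1.39 and -5.27 in HG epithelium. In all 3 genes adult replicates 2 and 3 and epithelium replicate 2 were high and the other arrays of their group low, and in adult LG the same genes had levels of 11.29 and 11.78, 10.33 and 10.89 and 11 and 11.39. The part of carried-over LG tissue or RNA in these values was not tested. Aqp5, the water channel of secretory cells, was even across arrays, with 1.95, 1.81 and 1.75 in adult HG and -1.88, -1.89 and -2.22 in HG epithelium (3.83 ± 0.30), and Ltf (lactoferrin) differed by 6.45.

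The protein secretory machinery of the ER had counts close to those of all genes in the HG. Of 33 genes 13 were higher and 10 lower (median 0.09, between 0.04 and 0.17 with single arrays left out and -0.09 with median scaling), against a median of 1.78 in the LG. The difference of differences was lower for 29 of the 33 and higher for none, against 18.1 and 27.1 percent of all genes. The lower count was between 20 and 31 over all alternatives, arrays left out in turn included. Xbp1, the factor that expands the ER, had 5.80, 5.18 and 5.71 in adult HG and 5.05, 4.60 and 5.03 in HG epithelium (0.67 ± 0.19, not called with median scaling), whereas it had 8.5 and 9.14 in adult LG and 4.89, 4.62 and 4.88 in LG epithelium (4.03, difference of differences -3.36, adjusted p = 2.97e-08). The chaperone gene Hspa5 did not pass the test in the HG (-0.53), although it was called lower under several other settings, slide as a block among them (adjusted p = 0.00099), and differed by 1.05 in the LG. Bhlha15 (Mist1), the factor of serous acinar cells, was lower in adult HG (-1.24), but not called without adult replicate 1 (adjusted p = 0.0687) or 2 (0.0531), and higher by 7.80 in adult LG.

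Fatty acid and cholesterol synthesis differed from the LG in the higher direction. In the LG the median of fatty acid synthesis was -0.59 and that of cholesterol synthesis -1.35, against 3.94 and 1.0 in the HG. The difference of differences was higher for 32 of 40 fatty acid genes and lower for 2, and higher for 19 of 22 cholesterol genes and lower for 1, where 27.1 and 18.1 percent of all genes were higher and lower. Elovl6 shows the divergence: it had 8.15, 8.73 and 9.15 in adult HG against 3.62, 3.40 and 3.87 in HG epithelium, and 0.04 and -1.08 in adult LG against 3.84, 3.79 and 4.41 in LG epithelium (difference of differences 9.58, adjusted p = 4.25e-12). Sqle had 1.08 and 1.47 in adult LG and 5.33, 5.28 and 5.35 in LG epithelium, a difference of -4.05. Peroxisomal genes were higher in the LG too, 24 of 33 with 1 lower (median 0.93, against 3.07 in the HG). Detoxification genes had a median of 2.67 in the LG, against 2.53 in the HG, with 19 of 27 higher and 4 lower in the LG. For acylglycerol and ether lipids the counts of differences of differences were 22 higher and 5 lower. They were 23 and 2 for peroxisomes, 7 and 0 for porphyrin synthesis and 9 and 1 for porphyrin handling. For mitochondrial respiration they were 19 and 0 and for detoxification 12 and 10. The split of all called differences was 60 percent higher, but 48 percent with normexp background correction, 70.4 percent with median scaling, 43.4 percent with scaling on probes above background, 46.5 percent without the filter on dim probes and 68 percent with a stricter one. Over these alternatives the count of higher genes stayed between 28 and 33 for fatty acid, 18 and 19 for cholesterol, 20 and 23 for peroxisomal and 5 and 8 for porphyrin synthesis genes, arrays left out in turn included, but between 8 and 29 for mitochondrial respiration. Adult LG arrays were dim, with 75th percentiles of 193.6 and 138.7 intensity units against 312.8 to 462.1 in adult HG. Among 893 genes with no LG array above background the LG difference had a median of 1.87, and among 668 such genes in the HG it was 0.60, and the part of signal near background in the lower calls was not tested.

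**Figure D4:**
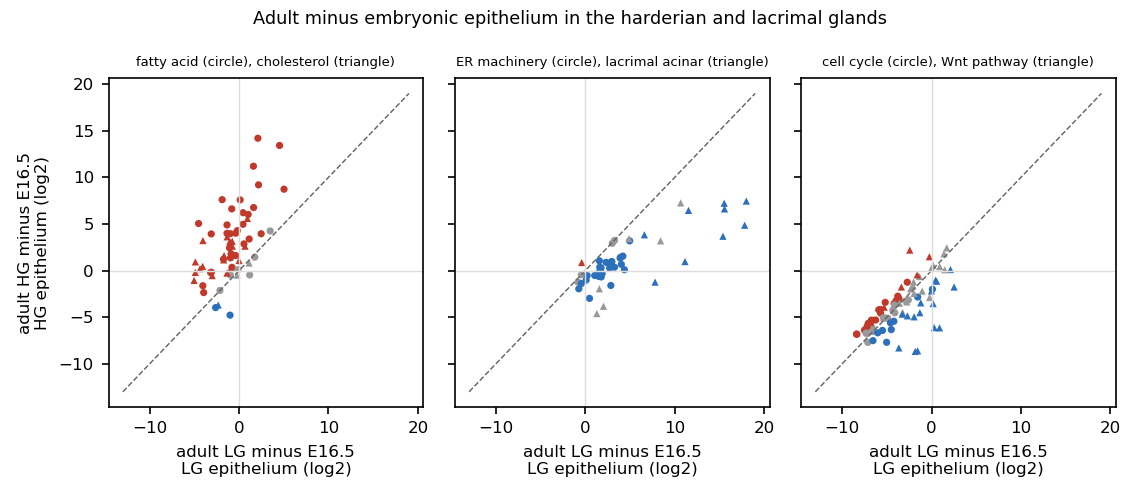
Difference of adult gland minus E16.5 epithelium (log2) in the HG (vertical axis) against the LG (horizontal axis) for genes of fatty acid and cholesterol synthesis, of ER machinery and lacrimal secretion, and of cell cycle and Wnt response. Red points had a called higher and blue a called lower difference of differences, and the dashed line is equality: most fatty acid and cholesterol genes lie above it (Elovl6 5.05 in HG and -4.53 in LG; 2 fatty acid genes and 1 cholesterol gene were called lower), most ER and lacrimal genes lie below it (1 lacrimal gene was called higher), and cell cycle genes lie on both sides of it.

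Of the 10 genes with the most extreme differences of differences, those higher in the HG were Mogat1 (12.37), Elovl3 (12.09), Cyp4a32 (11.76), Sptlc3 (11.51) and Cartpt (11.44). Those whose HG difference was lower than their LG difference were the lipocalin gene Lcn11 (-12.96), the serpin gene Serpinb11 (-13.20) and the predicted genes Gm12887 (-13.14), Gm12888 (-12.92) and Gm12886 (-12.35). In the HG itself Lcn11, Gm12888, Gm12886 and Gm12887 were called higher in the adult, and Serpinb11 was not called (-1.66). Lcn11 (4.86) had -4.86, 0.93 and 1.87 in adult HG and -6.83, -3.91 and -5.90 in HG epithelium, groups that overlapped. Gm12888 had -6.31, -2.38 and -0.11 in adult HG and was at least 3.475-fold higher. Gm12886 was well above background on 1 adult HG array and was at least 1.12-fold higher. Gm12887 (1.19) was well above background on no adult HG array, and its call was lost with quantile normalization (0.48, adjusted p = 0.0853). Serpinb11 had -0.79, -1.47 and -5.18 in adult HG, -0.64, -0.94 and -0.88 in HG epithelium, 4.59 and 5.03 in adult LG and -7.24, -5.41 and -7.56 in LG epithelium. The 3 predicted genes have neighbouring names and may share sequence, so their probes may not be independent.

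Of 14 clock genes 5 were higher and 3 lower (median 0.39, and -0.06 without adult replicate 2 and 1.08 without adult replicate 3), and output genes differed between the adult arrays: Dbp had 3.78, 5.01 and 0.54 in adult HG and 2.52, 2.24 and 2.24 in HG epithelium, and Per2 -3.21, 0.17 and -6.26 in adult HG and -3.27, -3.10 and -3.02 in HG epithelium. Adult replicate 3 was lowest for both, Dbp was called higher without it (2.06, adjusted p = 0.000238), and the hour of collection is not given in the sources used here. Of 13 immediate early and heat shock genes 7 were lower and 1 higher (median -2.22), with Fos at -3.40, Nr4a1 at -3.93 and the heat shock gene Hspa1a higher (2.66).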

How the data were processed

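Total RNA from each sample was labelled with Cy3 and hybridised to Agilent arrays, 23 in all on 3 slides. The values used are the deposited processed signal, a linear intensity per spot that Agilent Feature Extraction had already corrected for background, per the file headers (version 11.0.1.1 on slide 1 and 11.5.1.1 on slides 2 and 3, while the submitters' processing notes name 11.5.1.1). The authors' deposited value table of processed intensity matched these signals (largest SD of the log2 ratio 0.0425) and served as an alternative. Spots of a probe were averaged, log2 intensity was taken minus the array's 75th percentile over non-control probes, and probes were kept if well above background (in at least 0.5 of their spots) on every array of at least 1 group. Probes were named by matching the accession given for their spots to RefSeq transcripts (27509 of 55681). The brightest kept probe stood for a gene, leaving 16324 genes. A linear model with 1 mean per group was fitted over all 23 arrays in limma 3.58.1 (R 4.3.3), with moderated two-sided tests and Benjamini-Hochberg adjustment over all genes, threshold 0.05. The difference of differences took the LG difference from the HG difference. Fits were tested on simulated data.

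The number of arrays, 3 or fewer in a group, limits the precision. Named genes were the 10 highest and 10 lowest among called genes whose groups did not overlap and whose brighter group was measured on all its arrays, the same beyond both embryonic compartments, the 5 and 5 most extreme differences of differences, and members of 43 gene lists. The members, lists and rule were chosen with earlier results of these data known. Alternatives were normexp background correction (offset 50, on the median spot signal because the mean signal column planned for it was not in the files), 2 other scalings, quantile normalization, the deposited value table, slide as a block, fewer arrays in the fit, other filters, the mean over probes, and each array left out in turn. Leaving out LG arrays was chosen after seeing the data. On the HG arrays the replicate number is the slide, per the file headers, and it entered only as an alternative, as a block and within each slide; deviations from the group means correlated at -0.122, 0.370 and 0.216 between adult HG and HG epithelium. Promoter sequences are those of RefSeq, GRCm38.p6, matched by symbol.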

Additional observations from a re-analysis of the deposited data

Results flagged for a closer look

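The 10 genes below had the most extreme differences between the HG and the LG in how adult gland and E16.5 epithelium differed, by the limma test of the difference of differences. Those higher in the HG were Mogat1 (12.37), Elovl3 (12.09), Cyp4a32 (11.76), Sptlc3 (11.51) and Cartpt (11.44), on the log2 scale. Elovl3, Cyp4a32 and Sptlc3 were well above background on no LG array of either age. Those whose HG difference was lower than their LG difference were Serpinb11 (-13.20), Gm12887 (-13.14), Lcn11 (-12.96), Gm12888 (-12.92) and Gm12886 (-12.35). All 5 were well above background on both adult LG arrays and on no LG epithelium array. Of these only Serpinb11 was not called higher in adult HG than in HG epithelium. For Lcn11 those groups overlapped, and the Gm12887 call was lost with quantile normalization.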

How the results depend on the processing

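The calls of the adult HG against HG epithelium kept their size under every alternative run: counts stayed within 1.5 times of 5622 higher and 5807 lower genes. Leaving out 1 array at a time gave 5251 to 5546 higher and 5394 to 5993 lower genes, 4039 to 4178 and 3998 to 4332 at 2-fold, 2629 to 2813 above and 2494 to 2632 below both embryonic compartments, 3179 to 3299 stroma-rich and 2557 to 2853 epithelium-rich genes, and 3653 to 4714 higher and 2417 to 3058 lower differences of differences. With slide as a replicate block the counts were 6189 higher and 6160 lower, and 5199 higher and 3518 lower differences of differences. On the HG arrays the replicate number is the slide, so this block also stands for a paired fit, and it moved none of these counts by more than 1.5 times. The strict filter on dim probes kept only probes well above background on every adult HG and HG epithelium array. It left 12327 genes and gave 1946 stroma-rich genes in place of 3290. The lower differences of differences, 2950, became 4705 with normexp background correction, 1473 with median scaling, 1927 with the strict filter and 5031 without a filter, where 20887 genes were tested. The all-gene median of 0.06 was 0.16 with normexp, -0.12 with median scaling and 0.38 without a filter. List medians turned sign in at least 1 alternative for 12 of 43 lists. For 2 of them the median was beyond 1, skeletal muscle within slide 3 (-0.15) and cartilage and bone with normexp (0.11) and the strict filter (1.67, over the 3 of 11 genes it kept). The rest had medians near 0, and with the alternatives these ranged from -0.46 to 0.63 for epithelial genes, -1.21 to 0.92 for mesenchyme, -0.09 to 0.17 for ER machinery, -0.33 to 0.29 for basal and myoepithelial genes, -0.23 to 0.87 for cell cycle inhibitors, -0.32 to 1.41 for clock genes, -1.79 to 0.22 for keratins, -0.01 to 1.28 for Schwann cells, -1.0 to 0.39 for lens and retina, and -1.71 to 0.85 for melatonin synthesis. Among called genes named in the text, Fgf10 turned sign within slide 3 (-0.43), and the cause was not tested. Trp63, not called in the main fit, was called lower with the mean over probes (-1.72, adjusted p = 0.00056). That mean takes in the lower probe of Trp63 given above. Over the genes named in the text, 3724 of 3773 tested values kept their side of the threshold, and their direction too where the gene was called. A change of sign in a gene called in neither fit was counted as kept. Genes not well above background in a group have only a bound there, and the adult LG has 2 dim arrays.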
